A study of Homo sapiens with 12 samples.

Results

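Receptor tyrosine kinases were represented by 10 genes, KIT, PDGFRA, PDGFRB, KDR, FLT1, RET, EGFR, ERBB2, MET and FGFR1, out of 16886 protein-coding genes that had a usable window by the same rule. Each gene was read through the window of 400 bp around the annotated transcription start site (TSS) on its own strand whose centre lay nearest its RefSeq 5′ end, within 1 kb, and through every peak from 5 kb before to 5 kb after the gene. All 10 genes had such a window among 58381 windows, and 11 of the 32645 deposited peaks fell in or near them. The cells were HEK293, an established human embryonic kidney line kept in DMEM with serum, for which the labels name no drug or genetic change. G-quadruplexes in fixed, sonicated chromatin were pulled down with the antibody BG4, which recognises the folded structure. The labels give 9 ChIP libraries, as 3 technical libraries for each of the biological replicates BioRep1, BioRep2 and BioRep3, plus 3 inputs that skipped BG4. The inputs were not analysed here, and no source used here says whether the biological replicates were separate cultures. Any p-value therefore measures the spread between these libraries, which may be technical.

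G-quadruplexes are stacked structures that DNA with several neighbouring runs of guanine can fold into, and such DNA is common just upstream of genes. Receptor tyrosine kinases are cell surface proteins whose intracellular part phosphorylates tyrosines once a growth factor binds outside the cell. They drive growth, survival and migration, and many are oncogenes. Promoter sequences of KIT, RET, KDR, PDGFRA and PDGFRB are known to fold into G-quadruplexes in the test tube. The signal measured here lies on DNA, so it does not give the amount of any receptor, and the identity of the cells could not be checked from it.

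Reads in all windows together numbered 372030 in the shallowest library and 846114 in the deepest, which counts only the part of each library that fell in windows. Levels are given as CPM, reads in a window scaled so that all windows of a library sum to 1000000, averaged over technical libraries and then given as mean ± SD over the 3 biological replicates. All windows are equally long, so levels need no correction for length. They were not corrected for input or for regional signal. The windows also sit differently on their genes. At FGFR1, ERBB2 and PDGFRA the window is almost wholly upstream of the RefSeq 5′ end, and at MET almost wholly downstream. Protein-coding windows without a peak in any list had a median of 11.3 ± 0.505 CPM, and those with a peak in all 3 lists had a median of 64.4 ± 3.22 CPM. The peak lists came from the same reads as the levels, so the peaks and levels are not independent.

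FGFR1 and KIT had the most BG4 signal of the 10 receptors, and FGFR1 alone had a peak in its TSS window in all 3 replicates. KIT had a peak in 2 replicates, MET in 1, and the other 7 receptors in none. A peak in all 3 lists was thus present at 1 of 10 receptors (10%, 95% Wilson interval 1.79 to 40.4%), where the share over all 16726 protein-coding windows was 23.9%. Peaks in at least 2 lists were present at 2 receptors (34.2% of all protein-coding windows), and peaks in any list at 3 (41.3%). By list, 1 receptor had a peak in BioRep1, 2 in BioRep2 and 3 in BioRep3, while 25.3, 35.5 and 38.5% of protein-coding windows did. The BioRep1 list is the shortest, with 7931 peaks against 11665 and 13049. The median level over the receptors was 23.1 ± 2.25 CPM, next to 23.4 ± 0.672 CPM over all protein-coding windows.

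**Figure D1:**
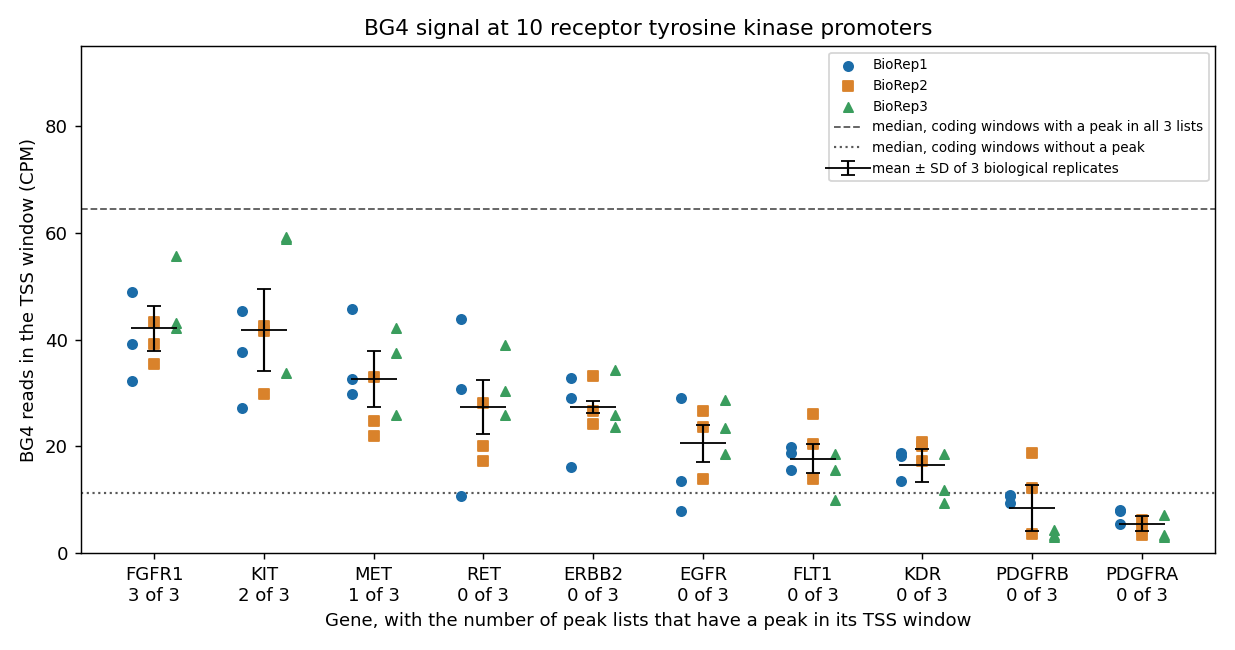
BG4 reads in the TSS window of each receptor gene in CPM (vertical axis) for the 9 ChIP libraries, coloured by biological replicate, with genes ordered by their mean and labelled with the number of peak lists that have a peak there. Black marks are the mean ± SD of 3 biological replicates, and the lines show the medians of 64.4 and 11.3 CPM for protein-coding windows with a peak in all 3 lists and without any; all 10 means lie below the upper line, and PDGFRB and PDGFRA lie below the lower one.

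The fibroblast growth factor receptor FGFR1 had 42.1 ± 4.18 CPM (SD, n = 3) in its window at chromosome 8, 38468635 to 38469034 (hg38, ENSG00000077782.19). Its levels were 39.1, 32.3 and 48.9 CPM in the technical libraries 1 to 3 of BioRep1, 43.4, 35.5 and 39.2 in BioRep2, and 42.1, 43.1 and 55.6 in BioRep3. The replicates overlapped and every library lay above the median of windows without a peak. The level rested on 234 reads and was 3.74 times that median. It was nevertheless low for a window with a peak in all 3 lists, since 94.8% of such windows were higher. The peaks ran from position -170 to -18 bp relative to the RefSeq 5′ end in BioRep1, from -86 to -7 in BioRep2, and from position -139 to the 5′ end itself in BioRep3. All 3 shared 69 bp, chromosome 8, 38468653 to 38468721, upstream of the RefSeq 5′ end. FGFR1 is on the minus strand, and all 3 peaks lie downstream of the annotated TSS at 38468834, on which the window is centred. The BioRep2 peak of 80 bp and the BioRep3 peak of 140 bp were shorter than the medians of their lists, 149 and 169 bp. Once peaks no wider than their list's median were dropped, FGFR1 kept a peak in BioRep1 alone.

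KIT encodes the receptor for stem cell factor and had 41.8 ± 7.67 CPM (n = 3) in its window at chromosome 4, 54657719 to 54658118 (ENSG00000157404.15). BioRep1 libraries had 45.4, 37.6 and 27.2 CPM, BioRep2 libraries 41.6, 42.5 and 29.8 CPM, and BioRep3 libraries 59.2, 58.9 and 33.7 CPM. Both libraries above 50 CPM were from BioRep3, but its lowest library fell within the range of the other replicates. KIT rested on 236 reads, about as many as FGFR1, yet it had no peak in BioRep1. Its BioRep2 peak was 26 bp long, chromosome 4, 54657960 to 54657985, just inside the gene. The BioRep3 peak was 220 bp long, 54657844 to 54658063, and spanned the start from position -113 to 106 bp.

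The KIT promoter is shown because its peaks can be set beside its G-runs. The motif searched was a row of 4 GGG runs or longer, with 1 to 7 bases of any kind between runs, on either strand, and overlapping matches were joined. The sequence below is RefSeq's (GRCh38.p14), chr4:54657707-54657917 on the plus strand, ends before both annotated starts and has the motif in capitals.
KIT: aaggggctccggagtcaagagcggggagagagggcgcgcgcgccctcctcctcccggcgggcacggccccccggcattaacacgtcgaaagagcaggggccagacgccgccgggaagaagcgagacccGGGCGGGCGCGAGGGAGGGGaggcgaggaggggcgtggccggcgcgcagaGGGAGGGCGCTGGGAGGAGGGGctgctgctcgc
Both matches had their G-runs on the KIT strand, from -122 to -103 and from -72 to -51 bp from the RefSeq 5′ end. The 220 bp peak of BioRep3 covered all 22 bases of the match nearer the gene and 11 of the 20 bases of the farther one. The short BioRep2 peak covered neither and lay 53 bases beyond the nearer match. A match is a description of the letters and not evidence that a structure forms.

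**Figure D2:**
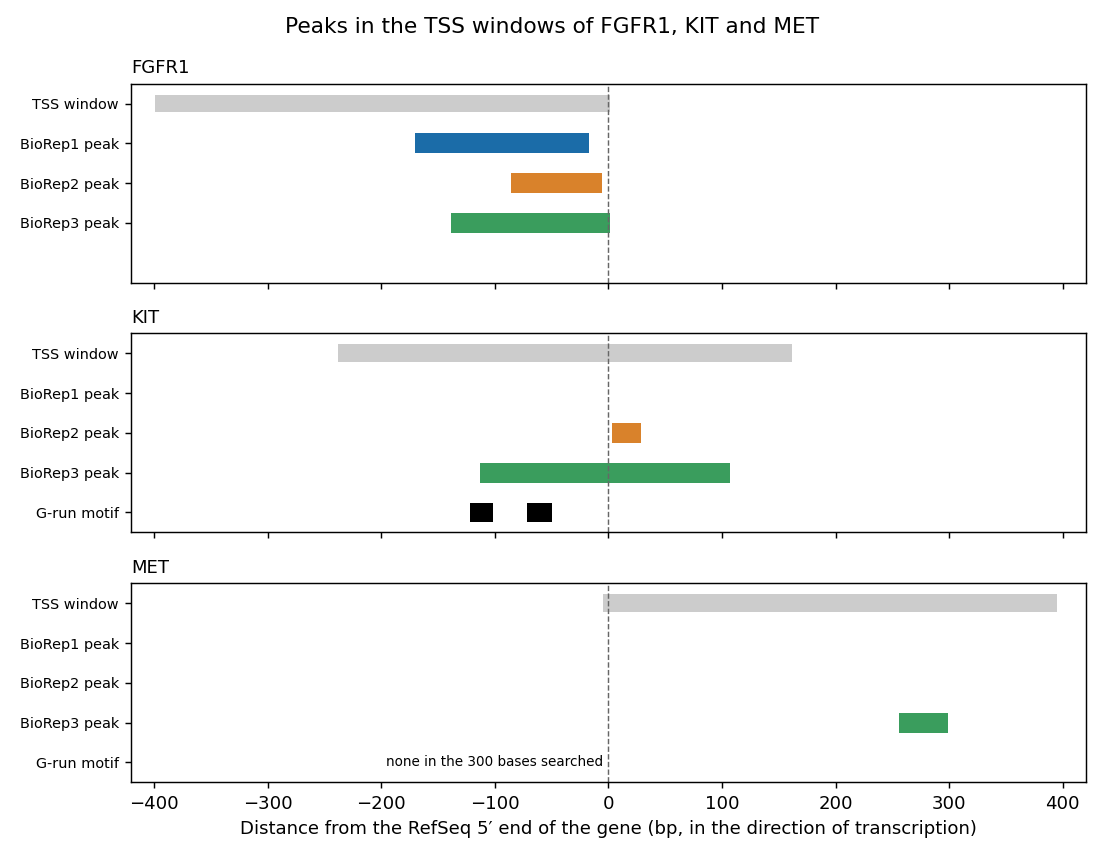
Positions of the TSS window (grey), the peaks of each biological replicate (coloured bars) and G-run motif matches (black) at FGFR1, KIT and MET, as distance in bp from the RefSeq 5′ end in the direction of transcription; the motif was not searched at FGFR1. The FGFR1 peaks overlap in all 3 replicates, the long KIT peak of BioRep3 covers the nearer of 2 motif matches, and the single MET peak lies 256 to 298 bp downstream of the 5′ end.

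MET, the receptor for hepatocyte growth factor, had 32.6 ± 5.22 CPM (n = 3) in its window at chromosome 7, 116672191 to 116672590 (ENSG00000105976.14). The libraries had 29.7, 45.7 and 32.6 CPM in BioRep1, 33, 24.8 and 21.9 CPM in BioRep2, and 37.4, 25.8 and 42.1 CPM in BioRep3. BioRep2 had the lowest mean but overlapped both other replicates. The level was 2.89 times the median of windows without a peak and close to the median of 34.8 ± 0.716 CPM over windows with a peak in 1 list. Its only peak was 43 bp long and came from BioRep3, chromosome 7, 116672452 to 116672494, inside the gene. The MET window lies almost wholly downstream of the RefSeq 5′ end, so most of the upstream promoter is outside it. That promoter, chr7:116671946-116672195 on the plus strand, held G-runs but no match to the motif and is printed for contrast with KIT, with no capitals.
MET: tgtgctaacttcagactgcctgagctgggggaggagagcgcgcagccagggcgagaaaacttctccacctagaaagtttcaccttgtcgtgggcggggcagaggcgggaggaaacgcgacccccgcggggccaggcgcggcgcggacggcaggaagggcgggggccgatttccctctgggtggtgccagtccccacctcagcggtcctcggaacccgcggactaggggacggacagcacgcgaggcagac
No peak of any list lay in these bases.

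RET, the receptor for ligands of the GDNF family, had 27.4 ± 5.01 CPM (n = 3) in its window at chromosome 10, 43076828 to 43077227 (ENSG00000165731.18). BioRep1 libraries ranged most widely, with 43.8, 10.8 and 30.8 CPM, followed by 17.3, 20.1 and 28.2 CPM in BioRep2 and 39, 25.8 and 30.3 CPM in BioRep3. The value of 10.8 CPM came from 4 reads in the library with the fewest reads. No list had a peak in the window, although 91.2% of protein-coding windows without a peak were lower. The only peak in the span of the gene came from BioRep3, chromosome 10, 43105488 to 43105703. It was 216 bp long and lay inside the gene, 723 to 938 bp downstream of a second RefSeq start at 43104765. The main promoter had the highest content of G and C among the 9 receptors with a promoter sequence, 78.7% of 300 bases, above 94.9% of the main promoters of protein-coding genes. Its 3 motif matches all had their G-runs on the strand opposite to the gene, so they appear as runs of C below (chr10:43076819-43077026, plus strand, motif in capitals). The match nearest the gene runs on past the last base shown.
RET: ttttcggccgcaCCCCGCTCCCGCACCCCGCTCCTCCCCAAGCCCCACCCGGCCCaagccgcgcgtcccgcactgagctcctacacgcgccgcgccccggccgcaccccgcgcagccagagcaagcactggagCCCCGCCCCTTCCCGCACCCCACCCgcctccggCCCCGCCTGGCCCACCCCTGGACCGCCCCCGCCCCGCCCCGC
A promoter rich in such runs was thus present without a peak in any list.

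EGFR and ERBB2, receptors of the epidermal growth factor family, had no peak in their windows. ERBB2 had 27.3 ± 1.13 CPM (n = 3; chromosome 17, 39687715 to 39688114, ENSG00000141736.13), with libraries from 16.1 to 34.3 CPM. EGFR had 20.6 ± 3.48 CPM (chromosome 7, 55018822 to 55019221, ENSG00000146648.17), with libraries from 7.83 to 29.0 CPM. Replicate means of the pair did not overlap, and ERBB2 was the higher in all 3 replicates. Their windows sit differently, centred 180 bp upstream of the RefSeq 5′ end at ERBB2 and 4 bp from it at EGFR. The 2 short peaks counted for ERBB2 lay downstream of the gene, chromosome 17, 39730471 to 39730536 in BioRep2 and 39730477 to 39730605 in BioRep3. Both overlapped the promoter of the neighbouring gene MIEN1, named here after its values were seen, whose TSS at 39730787 was 284 and 246 bp from their midpoints. The span of EGFR and 5 kb on each side had no peak in any list over a gene of 192612 bp.

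FLT1 and KDR, receptors for vascular endothelial growth factors, had 17.6 ± 2.71 and 16.5 ± 3.07 CPM (n = 3). The FLT1 window lay at chromosome 13, 28494946 to 28495345 (ENSG00000102755.11), and its libraries ran from 10.1 to 26 CPM. The KDR window lay at chromosome 4, 55125396 to 55125795 (ENSG00000128052.9), and its libraries ran from 9.35 to 20.8 CPM. FLT1 was above KDR in all 3 replicates, but the ranges of the replicate means overlapped. Neither gene had a peak in any list from 5 kb before to 5 kb after it. Both levels, 1.57 and 1.46 times the median of windows without a peak, fell inside the range of those windows, of which 72.9 and 70.1% were lower.

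PDGFRB and PDGFRA, receptors for platelet-derived growth factors, had the lowest levels. PDGFRB had 8.48 ± 4.26 CPM (n = 3; chromosome 5, 150155673 to 150156072, ENSG00000113721.13). Its libraries had 9.39, 10.8 and 10.9 CPM in BioRep1, 12.1, 3.55 and 18.8 CPM in BioRep2, and 3.12, 4.31 and 3.37 CPM in BioRep3. All libraries of BioRep3 lay below those of BioRep1, but their window held only 7 reads in all, and 1 library of BioRep2 was as low. No peak lay in or within 5 kb of PDGFRB. PDGFRA had 5.50 ± 1.40 CPM (chromosome 4, 54228898 to 54229297, ENSG00000134853.11), from 2 to 5 reads per library and 3.12 to 8.06 CPM. Only 7.55% of protein-coding windows were lower.

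The PDGFRA window did not hold the peaks of that gene. Peaks of BioRep1 (chromosome 4, 54233465 to 54233531, 67 bp) and BioRep3 (54233367 to 54233535, 169 bp) overlapped each other inside the gene, more than 4 kb downstream of the window's TSS. They ended at -429 and -425 bp relative to a second RefSeq start of PDGFRA at 54233960. BioRep2 had no peak there. The low level of the window therefore describes the outermost start alone, and no window was centred at the second one.

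The remaining motif matches are shown because they carry no peak. The PDGFRB match lay at -132 to -102 bp from the RefSeq 5′ end (chr5:150155947-150155977), the KDR match at -117 to -95 bp (chr4:55125690-55125712), the FLT1 match at -193 to -160 bp (chr13:28495288-28495321), and the EGFR match at -47 to -22 bp (chr7:55018970-55018995). Each is written 5′ to 3′ along the strand of its gene, wholly in capitals since the match is the whole sequence. The G-runs are on the gene's strand at KDR and on the opposite strand at the others.
PDGFRB: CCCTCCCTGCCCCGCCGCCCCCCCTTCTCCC
KDR: GGGTACCCGGGTGAGGGGCGGGG
FLT1: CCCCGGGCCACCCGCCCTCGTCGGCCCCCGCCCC
EGFR: CCCTCCTCCTCCCGCCCTGCCTCCCC
Promoter sequences of 300 bases, 250 upstream and 50 downstream of the RefSeq start, were matched for 9 of the 10 receptors. The motif was present in 6 of these 9, while 30.1% of 12186 main promoters of protein-coding genes held it. Of the 6 receptors with a match, only KIT had a peak in its window, in 2 lists. None of the 6 had a peak in all 3 lists, the measure used for all main promoters below. No match was found in the searched bases of MET, ERBB2 and PDGFRA. The MET peak lies outside those bases, and the sequences under the peaks of MET, PDGFRA, RET and FGFR1 were not read here. Across all main promoters a peak in all 3 lists was present in 32.9% (95% Wilson interval 31.4 to 34.4%) of those with the motif and in 23.3% (22.4 to 24.2%) of those without. The content of G and C ran from 47% at PDGFRA to 78.7% at RET, with a median of 69.3% for these 9 receptors and 63% for all main promoters.

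By level, the receptors followed the order FGFR1, KIT, MET, RET, ERBB2, EGFR, FLT1, KDR, PDGFRB and PDGFRA. The ranges of the 3 replicate means overlapped in 6 of the 9 neighbouring pairs and were separate between KIT and MET, between ERBB2 and EGFR, and between KDR and PDGFRB. KIT and MET were barely separate, with 36.74 CPM as the lowest mean of KIT and 36.02 CPM as the highest of MET. Among all 45 pairs the ranges were separate in 36, with no share for pairs of other windows to set beside this count. No test was run between genes. Over the 9 libraries, the protein-coding windows nearest to FGFR1 by Euclidean distance of log2 CPM were those of MAP2K4 (distance 0.34), TFDP1 (0.36) and ZSWIM3 (0.38), all with a peak in 2 lists.

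Each window was also set against windows without a peak within 5 Mb, of all gene types. The medians of those windows ran from 4.59 CPM around EGFR to 8.29 CPM around MET. Whether this reflects regional signal or the local mix of gene types was not tested. KIT reached 5.94 ± 1.43 times its local median (SD, n = 3) and FGFR1 5.61 ± 0.826 times. EGFR followed with 4.57 ± 1.24 times, since its local median of 4.59 CPM was the lowest of the 10. That moved EGFR above MET, RET and ERBB2, which were higher by CPM, although its SD spans the ratios of all 3 and of FGFR1. FLT1 and KDR were at 2.43 ± 0.279 and 2.38 ± 0.440 times. PDGFRB was at 1.04 ± 0.523 times, at the level of its surroundings, and PDGFRA at 0.801 ± 0.138 times. These ratios were not tested between genes.

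**Figure D3:**
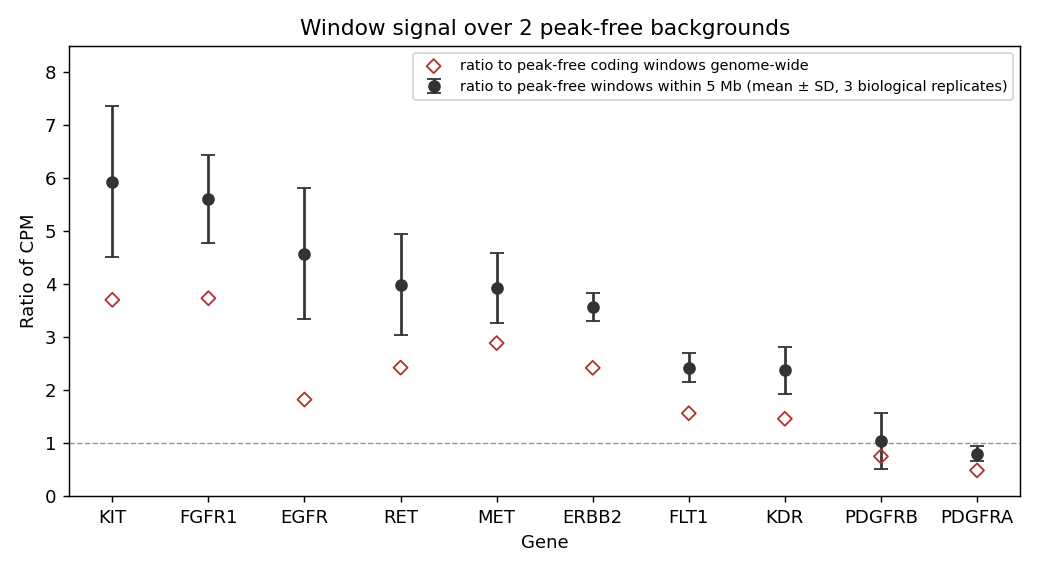
Ratio of each receptor window to the median of windows without a peak within 5 Mb (filled points, mean ± SD of 3 biological replicates) and to the median of all protein-coding windows without a peak (open diamonds), on a linear axis. KIT and FGFR1 lead on both scales, EGFR follows on the local one, and PDGFRB and PDGFRA lie near or below 1.

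Per Mb, the receptor spans held fewer peaks than all protein-coding genes, but no density was computed for genes of like length. Their spans with 5 kb on each side held 2 peaks in BioRep1, 3 in BioRep2 and 6 in BioRep3, or 1.99, 2.98 and 5.97 per Mb. Over all protein-coding genes the densities were 7.25, 10.4 and 11.4 per Mb, where a peak near several genes was counted for each. The receptor genes are long, with a median of 63223 bp against 24158 bp. A peak in any list was present in the span of 6 of the 10 receptors (57.1% of all protein-coding genes, and 65.1% of the 5001 genes in the same range of length). KDR, FLT1, EGFR and PDGFRB had none. The 11 peaks formed 6 sites, 1 per gene, of which 3 lay in TSS windows.

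The biological replicates were compared window by window with edgeR's quasi-likelihood test (2 df over the 3 replicates, Benjamini-Hochberg adjustment over 17499 windows that passed its filter on low counts). No receptor was called, and the share called over all windows was 0%. Of the 10 receptors 8 passed the filter, while PDGFRB and PDGFRA did not. Adjusted p ranged from 0.708 at RET to 0.995 at ERBB2. None of these 8 had an unadjusted p under 0.05, against 1379 windows or 7.88% of those tested. DESeq2, run without that filter, called 0 windows too. Of its 56196 windows 807 had an unadjusted p under 0.05, with none of the 10 receptors among them. Without the filter 3782 of 56196 windows had an unadjusted p under 0.05 in edgeR. Among them were 2 receptors, PDGFRB with 0.0223 (adjusted p = 0.653) and KIT with 0.0436 (adjusted p = 0.731). PDGFRB had the lowest unadjusted p of the 10 in DESeq2, 0.0809. With single libraries left out, KIT, RET and EGFR also reached unadjusted p under 0.05 in some edgeR fits. Across these fits 1300 to 1561 windows did, of 18919 to 20438 tested. The lowest p among the receptors was 0.0122 for KIT without technical library 3 of BioRep3 (adjusted p = 0.594). KIT was 0.41 higher on the log2 scale in BioRep3 than in BioRep1 (edgeR, adjusted p = 0.645) and RET 0.54 lower in BioRep2 than in BioRep1 (log2 difference -0.54, adjusted p = 0.684). In simulated data 200 of 17499 windows were changed in 1 replicate. Each simulated library put the reads of all its windows into these 17499, so they were deeper than the real ones. The test found 32.8% of the windows changed by 1.5-fold. It found 89.6% of those changed by 2-fold and 100% of those changed by 3-fold, for windows of all levels that passed the filter. It also called 8 unchanged windows. All simulated windows had the same dispersion (spread beyond counting error), the common value of 0.0011 from the fit. Real windows hold fewer reads and some may vary more, so changes in them may be found less often. These rates need not hold for the receptors.

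Related receptors were then read by the same rule, in a list of the 48 other human receptor tyrosine kinases, of which 44 had a window. A peak in all 3 lists was present at 6 of the 44 (13.6%, 95% Wilson interval 6.40 to 26.7%), in at least 2 lists at 13, and in any list at 16. Their median was 22.3 ± 2.87 CPM. MERTK, a receptor of the TAM family that takes part in the uptake of dying cells, was highest with 75.6 ± 2.96 CPM (n = 3), followed by FGFR2 with 70.1 ± 3.91 CPM. ROR1, which binds WNT5A, and PTK7, a pseudokinase of planar cell polarity, had 68.1 ± 10.4 and 47.0 ± 8.91 CPM with peaks in BioRep2 and BioRep3 alone.

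The same counts are given by family, a grouping made after the values were seen. Over all protein-coding windows 41.3% had a peak in any list, 34.2% in at least 2 and 23.9% in all 3. All 4 fibroblast growth factor receptors had peaks in at least 2 lists, and FGFR1, FGFR2 and FGFR4 in all 3. FGFR4 had 62.1 ± 6.05 CPM and FGFR3 35.7 ± 7.17 CPM, with FGFR3 peaks in BioRep1 and BioRep3. Among the 5 receptors of the PDGF receptor family (KIT, PDGFRA, PDGFRB, CSF1R and FLT3) KIT alone had a peak in its window. None of the 3 receptors for vascular endothelial growth factors had one, with levels of 16.5 to 20.7 CPM. Among them, FLT4 had its window centre 674 bp from the RefSeq 5′ end, so its window did not cover that end. None of the EGFR family had a peak among its 3 genes with a window, ERBB3 being without. The difference between families was not tested, and each holds few genes.

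Other parts of the pathway are given beside the shares of 23.9% of all protein-coding windows with a peak in all 3 lists and 41.3% with a peak in any, and the median of 23.4 CPM. Adaptors and first effectors carry the signal of the receptor on inside the cell. Among them 7 of 18 had a peak in all 3 lists (38.9%, 95% Wilson interval 20.3 to 61.4%), with a median of 35.3 ± 3.05 CPM. That interval includes the share of all windows. CRKL had 123 ± 14.5 CPM (n = 3) and GRB2, which links receptors to the RAS exchange factor SOS1, had 98.1 ± 7.59 CPM. FRS2, the docking protein of fibroblast growth factor receptors, had 47.0 ± 7.37 CPM and NCK2 had 33.3 ± 2.15 CPM, both with peaks in 2 lists. Among inhibitors of receptor signalling, 5 of 9 had such a peak (55.6%, 95% Wilson interval 26.7 to 81.1%), with a median of 48.8 ± 4.38 CPM. LRIG1, which promotes the turnover of EGFR family receptors, had 101 ± 9.01 CPM and ERRFI1, an inhibitor of the EGFR kinase, 55.1 ± 6.92 CPM. SPRED2 had 50.4 ± 6.09 CPM with peaks in 2 lists, and PTPRJ, a receptor phosphatase, 25.8 ± 5.05 CPM with none.

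None of 31 ligand genes had a peak in all 3 lists, 1 had peaks in 2 lists and 6 had a peak in any list. A count of 0 allows a share of up to 9.68% by the limit of 3 counts of the total, and the 95% Wilson interval ends at 11.0%. The median of the ligands was 14.3 ± 1.60 CPM. The gene with peaks in 2 lists was VEGFA, whose product binds FLT1 and KDR, with 42.9 ± 1.48 CPM (n = 3). HBEGF, a ligand of EGFR, had 39.5 ± 3.99 CPM with a peak in BioRep3 alone, as had PGF, NRG2, NRG4 and FGF5, which are named for this count after their values were seen. No list had a peak at any of 6 co-receptors, where the same limit is 50% and the Wilson interval ends at 39%. The median of the co-receptors was 12.05 ± 1.49 CPM, and NRP2 and GFRA2 were the highest with 15.3 ± 2.94 and 13.7 ± 2.10 CPM. Some windows of the adaptors, ligands and co-receptors did not cover the RefSeq 5′ end. Their centres lay 444 bp from it at NCK2, 445 bp at NRG4 and 511 bp at NRP2. No list was tested against other genes.

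**Figure D4:**
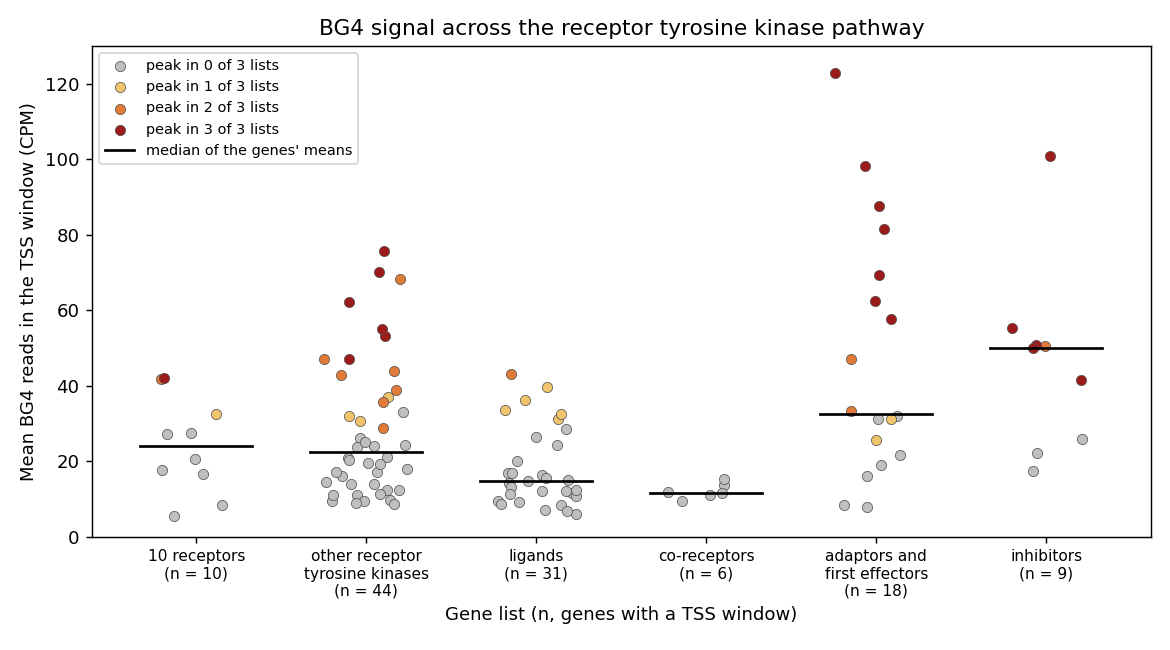
Mean BG4 reads in the TSS window (CPM, mean of 3 biological replicates) for each gene of the 6 lists, coloured by the number of peak lists with a peak in the window; the bar is the median of the genes' means. Most genes of every list lie below 50 CPM, and 7 of 18 adaptors, 5 of 9 inhibitors, 6 of 44 other receptors and 1 of the 10 receptors have a peak in all 3 lists.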

How the data were processed

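BG4 ChIP libraries of HEK293 cells were used, 9 in all, with biological and technical numbers from the sample titles. BG4 was recovered with anti-FLAG beads and libraries were made by Tn5 tagmentation, per the labels' protocols. What the authors deposited for each library is the unscaled count of reads in each 400 bp window around GENCODE release 28 TSSs (hg38), per the file names. The deposited peak lists, 1 per biological replicate, hold chromosome, start and end with no score. Tools in the submitters' processing notes are BWA, cutadapt, MACS2, Picard and bedtools. Their versions, the peak threshold, how technical libraries were joined into 1 list and whether marked duplicates were counted: not given in the sources used here.

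Windows carry Ensembl IDs only, so genes were named by position from a RefSeq table (GRCh38.p14), with strand from the RefSeq promoter table where it had the gene. Of 20037 nuclear protein-coding genes 16886 received a window, and 151 with a window at both ends and no known strand were dropped. Some windows overlap or serve 2 genes. CPM is scaled to reads in windows (372030 to 846114 per library). A peak counted in a window at an overlap of 1 bp or more. Intervals and limits for a count of 0 (3 counts of the total) cover counting error only.

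The replicates were compared with edgeR 4.0.16 (TMM, filterByExpr, robust quasi-likelihood test) in R 4.3.3, with DESeq2 1.42.0 as an alternative, and everything else was computed in Python 3.11.15. The edgeR script was tested on simulated data. Alternatives were other size factors, no filter, the technical number as a block, other overlap, width, window and consensus rules, other scalings, other motif rules, and dropping single libraries or biological replicates. Members and lists were chosen with earlier results of these data known. Genes named were all 10 receptors, the 3 windows nearest to the highest receptor, and of each other list the 2 highest with and the 2 highest without a peak in all 3 lists. Family members and MIEN1 were named after their values were seen.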

Additional observations from a re-analysis of the deposited data

How the results depend on the processing

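The median over the receptors stayed within 1 SD under every scaling and without single libraries (22.6 to 24.0 CPM). The CPM of each receptor stayed within 1 SD under the scalings tried. Without 1 biological replicate the median was 21.8 to 23.9 CPM. Dropping 1 of 3 replicates cannot move their mean beyond its SD, so that setting could not have failed, for the median or any receptor. No receptor was called between replicates by any fit. Without a filter 25 windows were called in place of 0, and leaving out single libraries gave 0 to 1 (1 without BioRep1 replicate 1 and without BioRep3 replicate 2). With the technical number as a replicate block 0 windows were called. The numbers share no stated batch, and deviations of same-numbered libraries correlated between -0.0146 and 0.0263, so they were not taken as pairs. The count of receptors with a peak in all 3 lists was 1; it was 0 with only peaks wider than the list median, 2 with peaks in at least 2 lists and 2 without BioRep1. Wide peaks alone left 3 of the 11 peaks at the receptors. The other receptor tyrosine kinases went from 6 to 13 with peaks in at least 2 lists and to 10 without BioRep1, a setting chosen after seeing the data, and the ligands from 0 to 1 under both. The cause was not tested. Choosing windows by Ensembl ID was not run, as the gene table pairs no IDs with these genes. Depth limits the lowest windows: PDGFRA had 2 to 5 reads per library.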
